A study of Homo sapiens with 6 samples.

Results

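The genes of the proteasome were examined in Cal33 cells (an established line from a human squamous carcinoma of the mouth) with and without an added carboxylesterase 2 (CES2) transgene. Members were the entries of the deposited abundance table whose symbol is PSM followed by a letter from A to G and a number, outside a stretch of chromosome 16 around CES2 that the selection left out. This gave 45 of 14136 gene entries, with coordinates on GRCh38. That stretch held 1 further entry, PSMB10, which is not analysed here, nor are PSMA8 and PSMB11. All 45 members passed the abundance filter of at least 1 TPM (transcripts per 1000000, a length-corrected share of each library) in at least 3 libraries, as did 12210 entries in all.

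The Vector group (n = 3 libraries) carried the empty pSin-EF2 lentiviral vector, and the CES2 group (n = 3 libraries) carried pSin-EF2-CES2-FLAG. Both were Cal33 cells infected with virus packaged in 293FT cells and then selected in 0.5 ug/ml puromycin. Whether each was a pool or a clone is not given in the sources used here. The labels do not tie the libraries of a group to separate infections or cultures, so p-values measure only the spread between these libraries, which may be technical.

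CES2 itself was at 41.9 to 45.6 TPM with the empty vector and at 1929 to 2664 TPM with CES2. TPM keeps no sequencing depth, so no counting interval can be given. Markers of squamous epithelium summed to between 3356 and 4873 TPM in a library, although KRT14, a basal keratin, was at only 1.14 to 2.97 TPM. The leukocyte list summed to 5.54 to 11.7 TPM, with PTPRC and CD3E not among the entries. The fibroblast list summed to 3.90 to 10.5 TPM and the endothelial list to 10.2 to 25.8 TPM.

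The proteasome is the protease that degrades ubiquitin-tagged proteins. Its barrel-shaped 20S core has outer rings of α subunits, which gate the entrance, and inner rings of β subunits, some of which cut peptide bonds. The 19S cap recognises the tagged protein, removes ubiquitin, unfolds the chain with a ring of ATPases and feeds it into the core. In cells exposed to interferon, and in many immune cells, replacement β subunits form the immunoproteasome, which favours peptides suited to MHC class I presentation. The transcription factor NRF1, encoded by NFE2L1, raises proteasome genes together when proteasome activity is short.

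None of the 45 proteasome genes passed the test between CES2 and Vector: 0 were called by limma at an adjusted p below 0.05, against 0.00819% of all tested genes. That share was 1 gene, CES2 itself (log2 fold change 5.66, adjusted p = 7.4e-06 in limma). No other gene of the 12210 tested passed, so the absence of calls was not particular to the proteasome. At an unadjusted p below 0.05 the count was also 0, against 1.09% of all tested genes. The adjusted p was 0.99985 for each of the 45 members. Their log2 fold changes ran from -0.24 for PSMG1 to 0.34 for PSMC6, with a median of 0.05, while the median over all tested genes was -0.06. These are differences of log2(TPM + 1), CES2 minus Vector. Values lay above 0 for 28 of 45 members (62.2%), compared with 36.3% of all tested genes. After each library was rescaled to a common median, the shares were 77.8% of members and 51.4% of all genes, and after quantile normalization 57.8% and 47.2%. The median of the members was -0.06 without Vector 1, -0.002 without CES2 1 and 0.14 without Vector 2. Leaving out 1 library, either Vector 1 or CES2 1, thus turned its sign.

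Measured against the spread of these libraries, which may be technical, most changes were bounded. For 42 of 45 members (93.3%), the 95% interval of the fold change lay inside a 2-fold change in either direction, as it did for 80.5% of all tested genes. The exceptions were PSME3, PSMD12 and PSMG1, whose intervals reached past a log2 value of -1 or 1. The median standard error was 0.21 for the members and 0.26 for all tested genes. In 1 member, PSMB6, every CES2 library lay above every Vector library, a pattern seen in 1.07% of all tested genes. In 0 members did every CES2 library lie below every Vector library, against 2.63% of all tested genes.

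**Figure D1:**
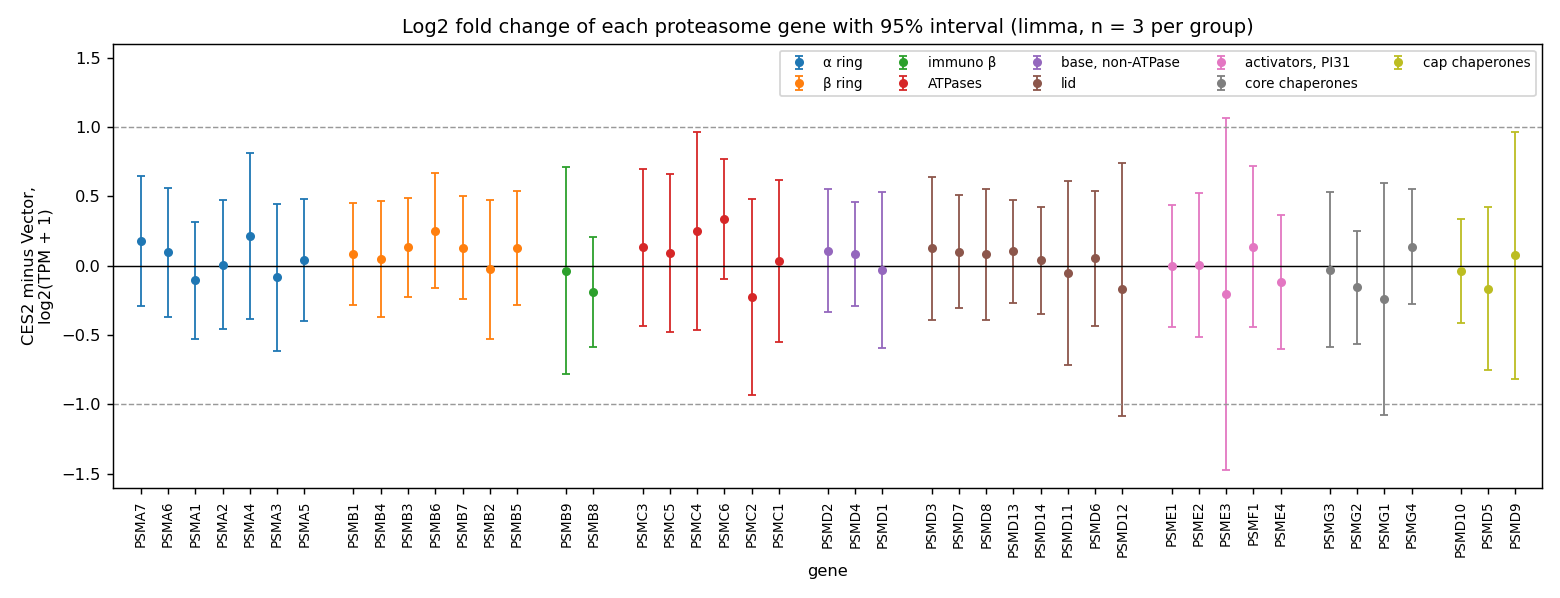
Log2 fold change of each of the 45 proteasome genes (y axis, CES2 minus Vector on the log2(TPM + 1) scale) with its 95% interval from limma, n = 3 libraries per group, grouped by role along the x axis. Every interval spans 0, and those of PSME3, PSMD12 and PSMG1 cross the dashed lines that mark a 2-fold change.

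The subunits were abundant transcripts. Mean levels over the 6 libraries ran from 26.0 TPM for PSMD9 to 936 TPM for PSMA7, with a median of 176 TPM, against 28.1 TPM for all tested genes. The constitutive β ring had the highest median of any role group, 419 TPM, followed by the α ring at 274 TPM. The lid was at 182 TPM and the ATPases at 156 TPM. The chaperones that build the particle were lower, with medians of 72.7 TPM for the core chaperones and 45.7 TPM for the cap chaperones. Transcripts of subunits that sit in equal number in the particle were thus not at equal levels: the 7 α subunits spanned 10.96-fold and the 7 constitutive β subunits 3.17-fold. TPM depends on the transcript lengths used by the authors. The table lists 1 transcript per gene, in some cases a short one, such as 444 bases for PSMB5, so level differences between genes carry that uncertainty. The ends of the α span, PSMA7 and PSMA5, also had the shortest and the longest listed transcript of that ring (685 and 3729 bases). GENCODE release 29 classes 44 of the 45 listed transcripts as protein-coding, and that of PSMG4 as subject to nonsense-mediated decay.

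**Figure D2:**
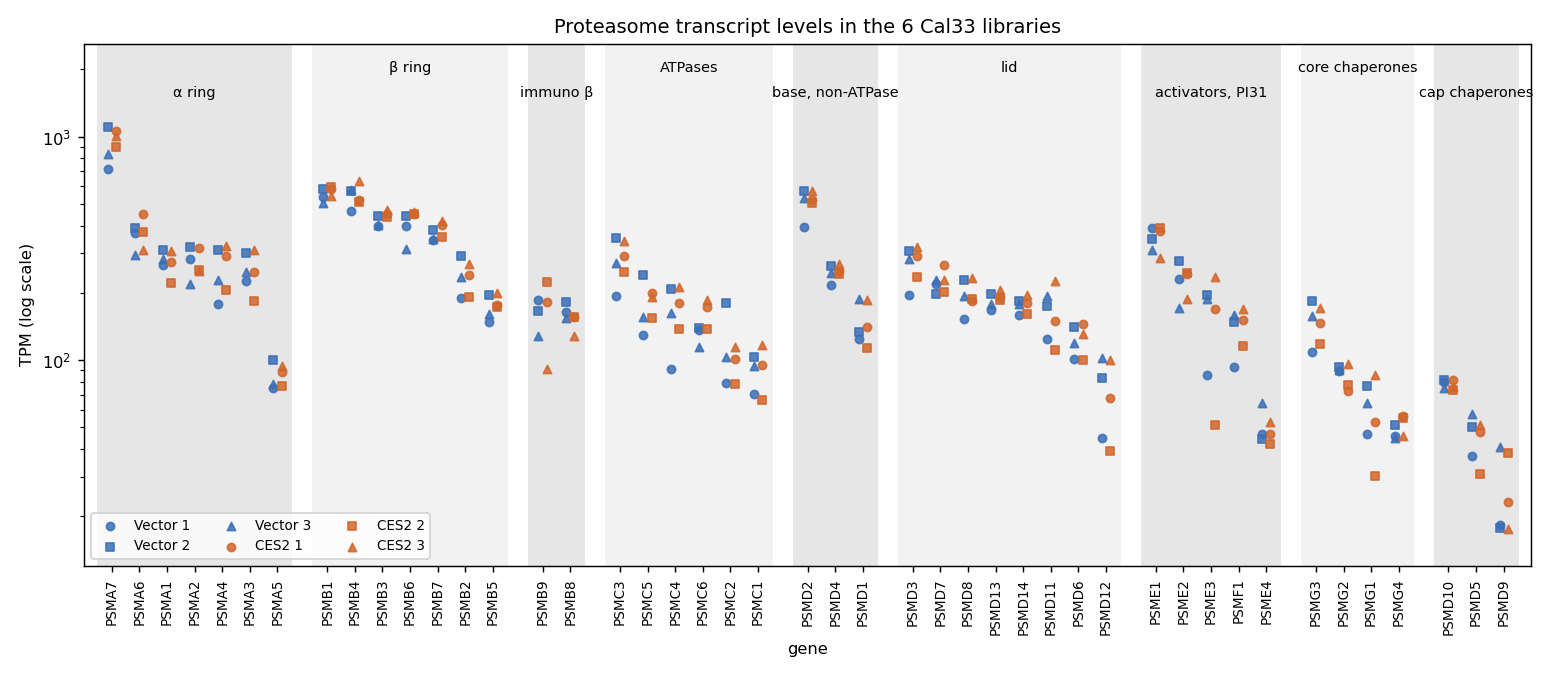
TPM on a log scale (y axis) of each proteasome gene (x axis) in the 3 Vector libraries (blue) and the 3 CES2 libraries (orange), with 1 symbol per library. PSMA7 stands highest at a mean of 936 TPM and PSMD9 lowest at 26.0 TPM, and the colours intermingle in all genes but PSMB6.

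The α ring differed between the groups by less than the spread of the libraries. Its summed abundance was 2378 ± 394 TPM with the empty vector and 2516 ± 270.0 TPM with CES2 (SD, n = 3 each). PSMA7 (ENSG00000101182, chromosome 20, 62136735 to 62139905), the α4 subunit, was at 715, 1101 and 839 TPM in Vector 1, 2 and 3 and at 1058, 900.1 and 1004 TPM in CES2 1, 2 and 3. Vector 2 held the highest value and Vector 1 the lowest, so the groups overlapped. The log2 fold change was 0.18 (standard error 0.20, 95% interval -0.29 to 0.65), and it was 0.04 without Vector 1 and 0.35 without Vector 2. PSMA4, the α3 subunit, was at 177, 309.7 and 227 TPM with the empty vector and 293, 205 and 325 TPM with CES2. Vector 1 and CES2 2 were its lowest libraries, and the log2 fold change was 0.21 (standard error 0.26), or 0.02 without Vector 1. The remaining α subunits, PSMA1, PSMA2, PSMA3, PSMA5 and PSMA6, had log2 fold changes between -0.10 and 0.10. PSMA5 was the least abundant of the ring at a mean of 85.4 TPM.

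The constitutive β ring varied least between libraries among the core and cap groups. Its sum was 2639 ± 234 TPM with the empty vector and 2842 ± 142 TPM with CES2 (SD, n = 3 each), and it varied 1.21-fold between the highest and the lowest library. Of its 7 members, 6 had fold changes above 0, with a median of 0.13, and none passed. PSMB6 (ENSG00000142507, chromosome 17, 4796144 to 4798502), the β1 subunit with caspase-like activity, was at 398, 442 and 314 TPM with the empty vector and 452, 452 and 458 TPM with CES2. The CES2 libraries lay close together and all exceeded the highest Vector library. The log2 fold change was 0.25 (standard error 0.18, unadjusted p = 0.199), and 0.12 without Vector 3, the lowest library. PSMB5 (ENSG00000100804, chromosome 14, 23016543 to 23034727), the β5 subunit with chymotrypsin-like activity and the main target of the drug bortezomib, was at 148, 196 and 161 TPM with the empty vector and 177, 172 and 200.1 TPM with CES2. Its groups overlapped, with a log2 fold change of 0.13 and a standard error of 0.18, and 0.04 without Vector 1. PSMB7, the β2 subunit with trypsin-like activity, averaged 358 TPM with the empty vector and 393 TPM with CES2. PSMB3, a structural subunit, was at 397, 439.5 and 401 TPM with the empty vector and 448, 437 and 472 TPM with CES2, a log2 fold change of 0.13 with the smallest standard error of any member, 0.16. The structural subunits PSMB1, PSMB2 and PSMB4 had log2 fold changes of 0.08, -0.02 and 0.05.

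The immunoproteasome subunits were well expressed in these epithelial cells, and the labels list no interferon treatment. PSMB8 (ENSG00000204264, chromosome 6, 32840717 to 32844020, minus strand), the β5i subunit that takes the place of PSMB5, was at 165, 182 and 155 TPM with the empty vector and 156, 156 and 128 TPM with CES2. The CES2 values reached into the Vector range only just, and the log2 fold change was -0.19 (standard error 0.17, 95% interval -0.59 to 0.21). PSMB9 (ENSG00000240065, chromosome 6, 32844136 to 32859585, plus strand), the β1i subunit that takes the place of PSMB6, was at 186, 166 and 129 TPM with the empty vector and 182, 222 and 91.4 TPM with CES2. Its highest and its lowest library were both CES2 libraries. The log2 fold change was -0.03 (standard error 0.33), and it was 0.34 without CES2 3, -0.29 without CES2 2 and 0.03 after median rescaling. The listed PSMB9 transcript spans TAP1 on the opposite strand. The libraries were strand-specific per the labels, but how the counting used strand is not given in the sources used here, so reads of these neighbours may not be fully separated.

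PSMB8 averaged close to its constitutive counterpart PSMB5 in the Vector libraries. The ratio of PSMB8 to PSMB5 TPM was 1.11, 0.928 and 0.963 with the empty vector and 0.882, 0.906 and 0.641 with CES2, with means of 1.00 ± 0.0968 and 0.810 ± 0.147 (SD, n = 3 each). Each CES2 value was below each Vector value, by a small margin except in CES2 3. How often ratios of other gene pairs separate in this way was not computed. The log2 ratio of the group means was -0.31, and -0.16 without CES2 3. The ratio of PSMB9 to PSMB6 was 0.468, 0.377 and 0.410 with the empty vector and 0.403, 0.492 and 0.199 with CES2. Here the groups overlapped, and CES2 3 again held the lowest value. The log2 ratio of the group means, -0.20, turned to 0.10 without that library. The ratio of PSME2 to PSME1, chains of 1 activator, was 0.590, 0.798 and 0.545 with the empty vector and 0.641, 0.626 and 0.655 with CES2, all within the Vector range. These ratios were not tested, since they are combinations of members, and they compare transcripts with different listed lengths.

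**Figure D3:**
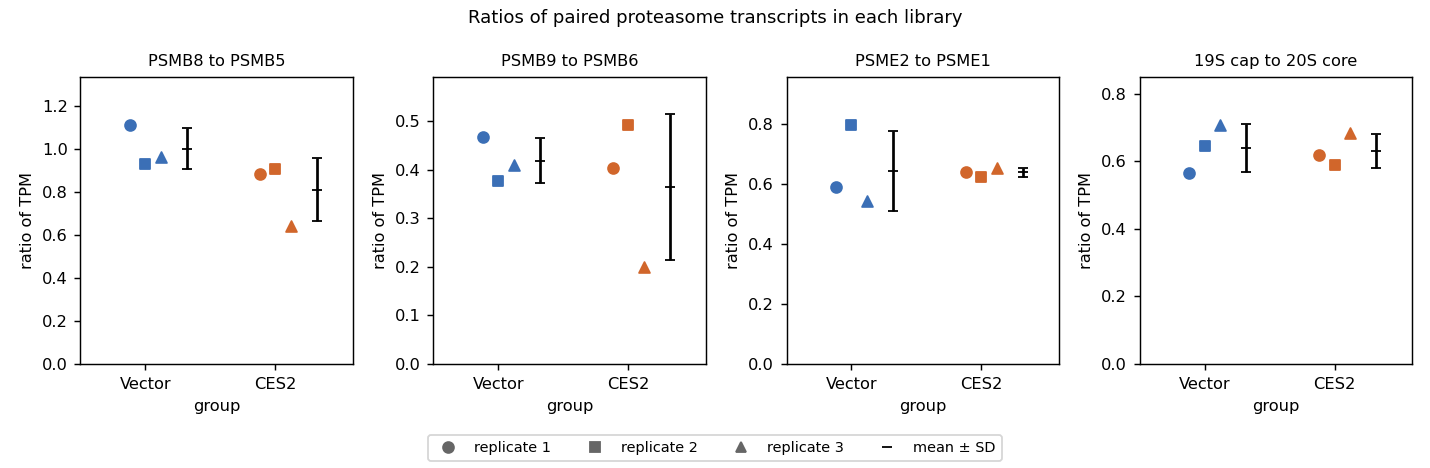
Ratio of TPM (y axes, from 0) in each library for PSMB8 to PSMB5, PSMB9 to PSMB6, PSME2 to PSME1 and the summed cap to the summed constitutive core, by group (x axes), with the mean and SD of 3 libraries in black. CES2 3 is the lowest point for both immunoproteasome ratios, at 0.641 and 0.199.

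The ATPases of the cap base differed more between libraries than between groups. The PSMC genes encode the ring of AAA ATPases that unfolds the substrate. Their summed abundance was 701, 1219 and 902 TPM with the empty vector and 1040 (CES2 1), 820 (CES2 2) and 1161 (CES2 3) TPM with CES2, a 1.74-fold span over the libraries. The group means were 941 ± 262 TPM and 1007 ± 173 TPM (SD, n = 3 each). PSMC6 (ENSG00000100519, chromosome 14, 52707172 to 52728587) had the largest fold change of all members. It was at 137, 139 and 114 TPM with the empty vector and 174, 138 and 185 TPM with CES2, so CES2 2 lay between Vector 1 and Vector 2. The log2 fold change was 0.34 (standard error 0.19, 95% interval -0.09 to 0.77, unadjusted p = 0.108). PSMC4 was at 91.3, 207 and 163 TPM with the empty vector and 179, 137 and 212 TPM with CES2. Vector 1 was its low point, and the log2 fold change of 0.25 (standard error 0.31) became -0.08 without that library. PSMC2 had a log2 fold change of -0.22, with Vector 2 at 179.9 TPM against 78.4 to 115 TPM in the other libraries. PSMC1, PSMC3 and PSMC5 lay between 0.03 and 0.13. GENCODE lists 13 pseudogenes named after PSMC1, and 12 of the members have at least 1, so reads from near-identical copies are a source of uncertainty for these.

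Among the non-ATPase subunits of the base, PSMD2 (RPN1), a large scaffold on which ubiquitin receptors dock, was the most abundant cap transcript. It was at 394, 572 and 533 TPM with the empty vector and 523, 502 and 574 TPM with CES2, a log2 fold change of 0.11 (standard error 0.19) that became -0.05 without Vector 1. PSMD4 (RPN10), a ubiquitin receptor, was at 216, 262 and 244 TPM with the empty vector and 251, 243 and 269.6 TPM with CES2, a log2 fold change of 0.08 (standard error 0.16) that was 0.007 without Vector 1. The other scaffold, PSMD1 (RPN2), was at -0.03. In all 3 genes Vector 1 and CES2 2 were the lowest or the next lowest library.

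The lid had a summed abundance of 1383 ± 194 TPM with the empty vector and 1445 ± 211 TPM with CES2 (SD, n = 3 each). PSMD13 (RPN9) was at 168, 198 and 178 TPM with the empty vector and 192, 185 and 206 TPM with CES2, with overlapping groups and a log2 fold change of 0.10 (standard error 0.16). PSMD7 (RPN8), the partner of the lid's deubiquitinase, was at 218, 196 and 229 TPM with the empty vector and 266, 201 and 227 TPM with CES2. Its log2 fold change of 0.10 (standard error 0.18) was -0.002 without CES2 1. PSMD14 (RPN11), the metalloprotease that cuts the ubiquitin chain from the substrate, averaged 174 TPM with the empty vector and 179 TPM with CES2, a log2 fold change of 0.04. PSMD11 (RPN6) and PSMD12 (RPN5) had the lowest values of the lid, -0.05 and -0.17. PSMD12 ranged from 39.0 TPM in CES2 2 and 44.7 TPM in Vector 1 to 103 TPM in Vector 3, so its span crossed the groups. PSMD3, PSMD6 and PSMD8 lay between 0.06 and 0.13.

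The alternative activators bind the core in place of the 19S cap. PSME1 and PSME2, the interferon-inducible α and β chains of PA28, are neighbours on chromosome 14 (24136158 to 24138967 and 24143365 to 24146605). PSME1 was at 389, 349 and 312 TPM with the empty vector and 378, 390.2 and 285 TPM with CES2, a log2 fold change of -0.005 (standard error 0.19). PSME2 was at 229.6, 279 and 170.3 TPM with the empty vector and 242, 244 and 187 TPM with CES2, a log2 fold change of 0.006 (standard error 0.23). The third library of each group was the lowest for both genes, and the groups overlapped. PSME3, the nuclear activator PA28γ, was the most variable member: 85.3, 196 and 188 TPM with the empty vector and 169.6, 51.2 and 235 TPM with CES2, a 4.601-fold span. Vector 1 and CES2 2 were low and the log2 fold change was -0.20 (standard error 0.55). PSME4 (PA200), the large single-chain activator, was at 46.7, 44.3 and 64.2 TPM with the empty vector and 46.8, 41.9 and 52.6 TPM with CES2, a log2 fold change of -0.12 (standard error 0.21) that became 0.04 without Vector 3. PSMF1 (PI31), which binds the core and was first described as an inhibitor, was at 93.0, 149 and 159 TPM with the empty vector and 150.4, 115 and 169 TPM with CES2. Its log2 fold change of 0.14 (standard error 0.25) became -0.10 without Vector 1.

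None of the 4 core assembly chaperones passed, and 1 of them had a fold change above 0. The PSMG genes encode PAC1 to PAC4, which guide the building of the α ring. PSMG2 (PAC2) was at 88.9, 92.8 and 90.3 TPM with the empty vector and 72.3, 77.5 and 95.5 TPM with CES2. CES2 1 and CES2 2 lay below the narrow Vector range and CES2 3 above it, with a log2 fold change of -0.16 and a standard error of 0.18. PSMG4 (PAC4) was at 45.9, 51.4 and 44.7 TPM with the empty vector and 56.1, 54.8 and 45.9 TPM with CES2, a log2 fold change of 0.14 (standard error 0.18). PSMG1 (PAC1) had the lowest fold change of all members, -0.24, with values from 30.4 TPM in CES2 2 to 85.6 TPM in CES2 3, both in the same group. PSMG3 (PAC3) was at -0.03.

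The chaperones of the cap base, PSMD5 (S5b), PSMD9 (p27) and PSMD10 (gankyrin), hold the ATPases until the ring is complete. PSMD10 was the least variable member, at 79.8, 81.2 and 75.3 TPM with the empty vector and 81.0, 73.1 and 76.0 TPM with CES2, a 1.11-fold span with a log2 fold change of -0.04 (standard error 0.16) that was 0.02 after median rescaling. PSMD5 was at 37.3, 50.1 and 57.3 TPM with the empty vector and 47.6, 31.0 and 51.1 TPM with CES2, a log2 fold change of -0.16 (standard error 0.26) that became 0.05 without CES2 2. PSMD9, the least abundant member, was highest in Vector 3 (40.8 TPM) and CES2 2 (38.5 TPM), and lay between 17.5 and 23.1 TPM in the other libraries.

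Much of the variation ran across the groups, between libraries. Each member was expressed as its deviation from its own mean over the 6 libraries, and the median deviation was -0.21 in Vector 1 and -0.14 in CES2 2, but 0.16 in Vector 2 and 0.16 in CES2 3, on the log2(TPM + 1) scale. Over all tested genes the same medians were 0.04, -0.02, -0.09 and -0.05. Vector 1 was the lowest library for 19 members and CES2 2 for 13, while CES2 3 was the highest for 21 and Vector 2 for 12. Vector 1 and CES2 2 together were the lowest pair for 24 of 45 members (53.3%), against 20.6% of all tested genes. That pair was singled out after the values were seen, and no test is given. The same libraries were apart in some marker values and not in others. The summed endothelial list was at 10.2 and 11.2 TPM against 14.8 to 25.8 TPM elsewhere. The fibroblast marker COL1A1 was at 9.36 and 10.5 TPM against 3.90 to 6.54 TPM elsewhere. The low endothelial sum was that of CDH5 (8.25 and 8.75 TPM against 13.7 to 25.3 TPM). The other endothelial markers did not follow it: PECAM1 was highest in these libraries, at 0.419 and 0.549 TPM, and VWF, at 1.51 and 1.87 TPM, was not low there. Squamous markers summed to 3537 and 3356 TPM in Vector 1 and CES2 2 and to 3480 to 4873 TPM elsewhere. Leukocyte markers summed to 11.7 and 7.61 TPM there and to 5.54 to 8.54 TPM elsewhere. Neither of these sums set the pair apart. Some squamous markers did, in both directions. EPCAM was lowest in Vector 1 and CES2 2, at 314 and 320 TPM against 390 to 457 TPM elsewhere. TP63 (103 and 117 against 54.3 to 97.6 TPM) and KRT14 (2.64 and 2.97 against 1.14 to 2.08 TPM) were highest there. KRT5, KRT17 and CDH1 did not set the pair apart. The part of these differences in the proteasome pattern was not tested, and in bulk RNA fewer cells of a type and less RNA per cell cannot be told apart. Across all tested genes, the deviations of Vector 1 and CES2 2 from their group means had a Pearson correlation of 0.682. That was the highest value for any Vector library with any CES2 library, given for a pair already singled out. Vector 1 with CES2 3 was at -0.678. Such deviations sum to 0 within each group, so these correlations are tied to each other. They describe these libraries, and genes are not independent replicates.

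By role group, the counts were as follows, as a description of small groups with no test of a difference between them. Vector 1 and CES2 2 were the lowest pair for 5 of 6 ATPases, 3 of 3 non-ATPase base subunits, 5 of 8 lid subunits and 4 of 7 α subunits. They were so for 2 of 7 constitutive β subunits, 2 of 5 activators with PI31, 2 of 4 core chaperones, 1 of 3 cap chaperones and 0 of 2 immunoproteasome subunits. The span of the library medians was 0.78 for the ATPases and 0.28 for the constitutive β ring. The immunoproteasome pair had median deviations of 0.16, 0.15 and -0.15 in Vector 1, 2 and 3 and of 0.11, 0.25 and -0.53 in CES2 1, 2 and 3. The value in CES2 2 came from PSMB9, since PSMB8 was there at 156 TPM, close to its mean of 157 TPM. The ratio of the summed cap (ATPases, other base subunits and lid) to the summed constitutive core was 0.566, 0.645 and 0.707 with the empty vector and 0.617, 0.589 and 0.684 with CES2, lowest in Vector 1 and next lowest in CES2 2. Without Vector 1 and CES2 2 the number of members called was again 0 and the median log2 fold change of the members was 0.03.

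**Figure D4:**
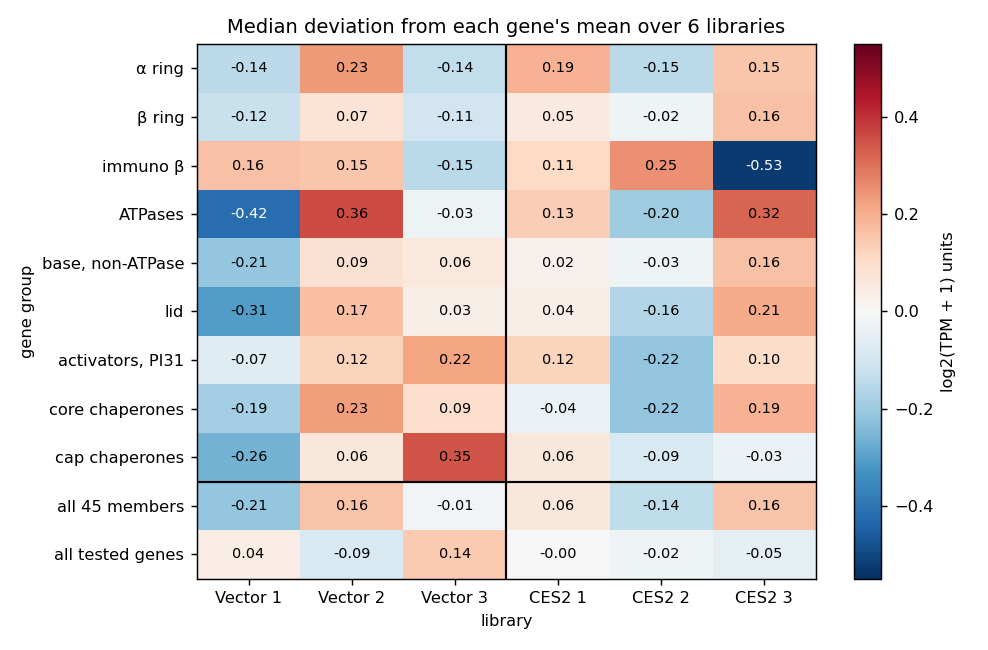
Median deviation of each role group (rows) from the mean of each gene over the 6 libraries (columns, Vector left and CES2 right of the line), in log2(TPM + 1) units, red above and blue below. Vector 1 is blue for every role group but the immunoproteasome pair, whose lowest value is -0.53 in CES2 3.

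Genes that work with the proteasome outside the PSM names gave the same count of calls. Of 12 tested partners, 0 passed in either direction, with a median log2 fold change of -0.04. PAAF1, which binds the cap ATPases and restrains joining of cap and core, had the smallest unadjusted p of these (0.0958), at 39.1, 21.5 and 12.7 TPM with the empty vector and 14.9, 14.2 and 10.8 TPM with CES2. Vector 3 lay inside the CES2 range. UCHL5, a cap-bound deubiquitinase, had a log2 fold change of -0.26. POMP, the chaperone of β ring assembly, was at 0.01.

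Among 9 regulators of proteasome gene transcription, 0 passed, with a median log2 fold change of -0.04. NFE2L1 was at 158, 111 and 139 TPM with the empty vector and 151, 163 and 119 TPM with CES2, a log2 fold change of 0.09 (standard error 0.21). Its high libraries included Vector 1 and CES2 2. SYVN1, an ER ubiquitin ligase, was at 57.0, 49.99 and 66.8 TPM with the empty vector and 39.4, 42.8 and 43.1 TPM with CES2. Its log2 fold change was -0.45 (unadjusted p = 0.0407, adjusted p = 0.99985 in limma). An unadjusted p below 0.05 was seen in 1.09% of all tested genes. All CES2 values of SYVN1 lay below all Vector values, a pattern seen in 2.63% of all tested genes. MAFF, a small partner of CNC factors such as NRF1, had a log2 fold change of 1.01 (unadjusted p = 0.0436), with 9.71, 17.9 and 6.41 TPM with the empty vector and 37.5, 17.7 and 15.9 TPM with CES2. Its groups overlapped. NFE2L1 was named for its role after its values were seen.

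Ubiquitin shuttles (5 tested) and ubiquitin genes with E1 enzymes (5 of 6 tested) had 0 calls and medians of -0.02 and -0.03. The most distant values were -0.19 for UBQLN1 and -0.24 for UBA6.

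In the class I antigen processing list, which shares interferon control with PSMB8 and PSMB9, 0 of 9 tested genes passed and the median was -0.19. NLRC5, the class I transactivator, was at 6.92, 9.38 and 7.14 TPM with the empty vector and 4.57, 5.77 and 6.16 TPM with CES2. Its log2 fold change was -0.44 (standard error 0.24). All CES2 values of NLRC5 lay below all Vector values, a pattern seen in 2.63% of all tested genes. B2M, the invariant chain of MHC class I, was at 1408, 1021 and 848 TPM with the empty vector and 85.1, 1309.6 and 692 TPM with CES2. Its log2 fold change of -1.32 had a standard error of 0.85, and CES2 1 alone stood far below the other libraries. PSMB8 and PSMB9 in CES2 1 were at 156 and 182 TPM, within the range of the other libraries.

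Promoter sequence was read for the members since their levels shared a pattern over the libraries. RefSeq windows (GRCh38.p14, 250 bases before the first listed start of each gene) were at hand for 39 of 45 members and for 27305 genes in all. PSMB1, PSMD4, PSMB7, PSMA7, PSMB6 and PSMG3 had none. Both strands were searched for 3 motifs. The antioxidant response element core TGACNNNGC (GCNNNGTCA on the other strand), the sequence read by NRF1 and NRF2, was found in 11 of 39 members (28.2%) and in 11.03% of all windows. The CCAAT box (ATTGG on the other strand) was found in 17 members (43.6%) and in 33.0% of all windows. The interferon-stimulated response element core GAAANNGAAA (TTTCNNTTTC on the other strand) was found in 4 members (10.3%), namely PSMA4, PSMB4, PSME2 and PSMG4, and in 3.07% of all windows. Matches to different motifs do not overlap in the windows printed here. The windows of all genes include genes outside the 12210 tested and were not matched to the members for base composition. A match describes letters only.

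Set against the library pattern, Vector 1 and CES2 2 were the lowest pair for 4 of 11 with a match (36.4%) and for 18 of 28 without one (64.3%), a description with no test. The windows below, written 5′ to 3′ along the gene without bases that GENCODE release 29 places in an exon, show a lid gene with a wide range over the libraries (PSMD12), another with the same low libraries (PSMD3), the β subunit with the smallest standard error (PSMB3) and the immunoproteasome gene that was highest in Vector 1 and CES2 2 (PSMB9). Capitals mark the antioxidant core in all 4, and CCAAT or ATTGG where present. They lie at chr17:67366628-67366827 (minus strand), chr17:39980557-39980796 (plus), chr17:38752491-38752735 (plus) and chr6:32853979-32854147 (plus). The last lies between annotated exons of TAP1 and PSMB9.
PSMD12: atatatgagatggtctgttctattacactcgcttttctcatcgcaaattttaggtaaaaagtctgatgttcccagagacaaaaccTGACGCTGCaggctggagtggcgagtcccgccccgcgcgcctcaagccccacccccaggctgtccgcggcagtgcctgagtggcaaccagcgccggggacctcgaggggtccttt
PSMD3: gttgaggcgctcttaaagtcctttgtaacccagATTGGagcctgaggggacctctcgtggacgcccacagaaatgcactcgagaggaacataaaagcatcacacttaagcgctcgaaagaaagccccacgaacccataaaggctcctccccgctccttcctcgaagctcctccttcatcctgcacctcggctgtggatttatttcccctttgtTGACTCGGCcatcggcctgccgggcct
PSMB3: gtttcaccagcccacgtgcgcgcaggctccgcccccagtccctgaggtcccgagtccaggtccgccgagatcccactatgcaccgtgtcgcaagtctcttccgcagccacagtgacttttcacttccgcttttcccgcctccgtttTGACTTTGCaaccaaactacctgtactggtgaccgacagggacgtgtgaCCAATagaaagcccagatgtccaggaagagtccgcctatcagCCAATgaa
PSMB9: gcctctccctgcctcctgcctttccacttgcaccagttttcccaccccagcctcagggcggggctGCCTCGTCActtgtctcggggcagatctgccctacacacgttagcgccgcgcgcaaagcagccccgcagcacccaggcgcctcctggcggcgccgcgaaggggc

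The core in PSMD12 (TGACGCTGC) lay 165 to 157 bases before the start, in PSMD3 (TGACTCGGC) 37 to 29 bases and in PSMB3 (TGACTTTGC) 104 to 96 bases. In PSMB9 it was read on the other strand, 148 to 140 bases before the start. The RefSeq start of PSMB9 lies within the span of the longer transcript listed in the deposited table, whose own start is at 32844136. The interferon element of PSME2 (GAAAGCGAAA) lay 28 to 19 bases before its start. PSMB8 and PSMB9 had no match to the interferon element in their windows, which says only that these letters are not there.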

How the data were processed

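RNA of 6 Cal33 libraries was analysed from 1 table of the whole series. The authors deposited TPM values per gene, with blanks (73 to 279 entries a library) read here as 0. The unit was taken from column sums of 999804 to 999893. HISAT2 2.1.0, StringTie 1.3.3 and edgeR 3.0.8 are named in the submitters' processing notes, with builds hg38 and GRCh38 and no roles. The annotation, any filter and the strand setting: not given in the sources used here. Libraries were made strand-specific after rRNA depletion, per the labels' protocols.

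Values were transformed as log2(TPM + 1) with a pseudocount of 1. CES2 and Vector were compared by limma 3.58.1 (R 4.3.3) with an intensity trend and group as the only term, over 12210 genes, with Benjamini-Hochberg adjustment over all of them. The script was tested on simulated data. For 3 against 3 libraries, an exact permutation test cannot give a p below 0.1 and was not used. The listed transcripts of all 45 members had the same coordinates in GENCODE release 29. Python 3.11.15, pandas 2.3.3 and matplotlib 3.10.9 were used.

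The members, role groups and lists were chosen with earlier results of these data known. Full statistics are given by rule for PSMB5, PSMB6, PSMB8, PSMB9, PSME1, PSME2 and the 2 members of each role group with the smallest unadjusted p. In each list of related genes the 2 with the smallest unadjusted p are named, except some genes that are not reported here. Other genes given with values, among them PSMC2, PSMD12, PSME3, PSMG1, POMP and NFE2L1, were chosen after their values were seen. Alternatives covered normalization, pseudocounts, filters, the trend, library weights, a replicate block and leaving out libraries.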

Additional observations from a re-analysis of the deposited data

How the results depend on the processing

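The number of proteasome genes past the threshold was 0 in all 17 alternatives. The number of genes called over the whole table was 1 in the main analysis, 4 with library weights and 2 without both Vector 1 and CES2 2, an alternative chosen after seeing the data; leaving out 1 library in turn gave 1 to 2. The median log2 fold change of the members, 0.05, ran from -0.06 without Vector 1 to 0.14 without Vector 2. Of 336 fold changes of the 21 members with full statistics under the alternatives, 312 kept their direction and 0 passed. The replicate block, the filters and the fit without the trend cannot alter a fold change, so their share of the 312 was fixed in advance. The other pseudocounts moved these fold changes only slightly. Under median rescaling PSME1 was at 0.0568, PSMD10 at 0.0244 and PSMB9 at 0.0271. Under quantile normalization PSME2 was at -0.00663. With library weights PSME1 was at 0.13, PSMD10 at 0.0381 and PSMB9 at 0.23. That fit gave CES2 1 a weight of 6.86 and the other libraries weights of 0.513 to 1.12. Its fold changes and its 4 calls thus rest, on the CES2 side, mostly on CES2 1. Without both Vector 1 and CES2 2, PSME2 was at -0.0348, PSMD10 at 0.00602 and PSMD2 at -0.0109. With 1 library left out, ranges that crossed 0 were -0.0829 to 0.50 for PSMC4, -0.10 to 0.29 for PSMF1, -0.0875 to 0.14 for PSME1, -0.29 to 0.34 for PSMB9, -0.0526 to 0.22 for PSMD2, -0.22 to 0.0435 for PSME4, -0.18 to 0.17 for PSME2, -0.00239 to 0.20 for PSMD7 and -0.33 to 0.0535 for PSMD5. The cause was not tested.

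With the replicate number as a block the members called were again 0. Their median of 0.05 was fixed in advance, since each group held every replicate number. Whether the numbers pair the libraries was not settled. Deviations of same-numbered libraries had correlations of 0.145, -0.524 and 0.375. Deviations from a group mean sum to 0 over its 3 libraries, so these correlations are tied to each other and cannot decide it. TPM holds no depth, so its limit on low values is unknown. Tools that need counts were not run.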
